A study of Homo sapiens with 6 samples.

Results

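The 9 gene rows described here belong to the enzymes that move amino groups between asparagine, aspartate, glutamine, glutamate, alanine and the branched-chain amino acids. They were all rows of the deposited table whose gene symbol was ASNS, ASNSP1, GPT2, GOT1, GOT2, GLUL, GLUD1, BCAT1 or BCAT2, 9 of 61806 rows in all, and ASNSP1, a pseudogene of ASNS, was read beside its parent gene. The members were selected on their measured difference between the groups, so their differences are given as a description, and calls of members are counted below without anything being read from them. The RNA came from MDA-MB-231, an established human triple-negative breast cancer (BC) cell line. The control group held 3 samples with no PB, whose vehicle is not given in the sources used here. The PB group held 3 samples given Parishin B (PB), a phenolic glucoside of the orchid Gastrodia elata, at 20 μM for 24 h. The labels give this line for all 6 samples and name no genetic modification, and nothing says whether the replicates were separate cultures.

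ASNS makes asparagine by passing the amide nitrogen of glutamine to aspartate. GOT1 and GOT2 are the cytosolic and mitochondrial forms of the enzyme that makes aspartate from glutamate and oxaloacetate, GPT2 is the mitochondrial enzyme that makes alanine from glutamate and pyruvate, and BCAT1 and BCAT2 are the cytosolic and mitochondrial enzymes that take the amino group from leucine, isoleucine and valine. GLUL adds ammonia to glutamate to give glutamine, and GLUD1 is the mitochondrial dehydrogenase that links glutamate with alpha-ketoglutarate. When amino acids are short or proteins misfold, mammalian cells are known to raise the transcription factor ATF4, and ASNS is among the best known genes that it switches on.

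Library totals ran from 15681655 to 21986948 counts, and a floor of 3 counts was 0.136 to 0.191 CPM (counts scaled by library total), a limit that covers counting error only. All 9 rows lay above that floor in every library. Replicates of a group differed slightly beyond sampling noise, at 1.45 to 1.92 chi-square units per degree of freedom. The summed level of 6 mesenchymal markers of the labelled line was 1140 to 1170 FPKM (fragments scaled by exon length and library total) in the control group and 1120 in the PB group. Most of that sum was VIM, at 603 FPKM on average in the control group and 635 with PB, while 0 of the 6 were called higher and 2 were called lower, CAV1 at -1.16 and TGFBI at -1.50 on the log2 scale. The summed level of 12 epithelial markers was 447 to 453 FPKM in the control libraries and 160 to 166 with PB. Of the 12, 8 were called lower and 1 was called higher, ESRP1 at 1.63 on the log2 scale, while CLDN4 and KRT19 were not called. The markers CDH1, ELF3, GRHL2 and AGR2 were at or under the floor in every PB library, GRHL2 also in every control library. KRT7, a keratin of simple epithelia, averaged 44.5 FPKM in the control group and 0.44 with PB. In addition, 113 genes reached 30 counts or more in each control library and no more than 3 in any PB library, against 1 gene the other way. No member was among those 113 genes, which held 0.178 to 0.181% of the control counts. The control and PB libraries thus stood apart in cell markers, whether all 6 held the labelled line alone was not tested, and neither was the part of these genes in the differences below. As these are bulk samples, a change in the share of a kind of cell and a change in RNA per cell cannot be told apart.

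Promoter sequences of 3 members are shown because they hold the letters TGATGNAA, the core of the C/EBP-ATF response element that dimers with ATF4 are known to bind. Each runs from 250 bases before to 50 bases after a RefSeq transcription start on GRCh38.p14, is written 5′ to 3′ on the strand of the gene, and has in capitals every match to TGATGNAA or GTTACA on either strand. In the GOT1 promoter the match lies on the opposite strand and therefore reads as its reverse complement.
ASNS promoter, chr7:97872359-97872658, minus strand: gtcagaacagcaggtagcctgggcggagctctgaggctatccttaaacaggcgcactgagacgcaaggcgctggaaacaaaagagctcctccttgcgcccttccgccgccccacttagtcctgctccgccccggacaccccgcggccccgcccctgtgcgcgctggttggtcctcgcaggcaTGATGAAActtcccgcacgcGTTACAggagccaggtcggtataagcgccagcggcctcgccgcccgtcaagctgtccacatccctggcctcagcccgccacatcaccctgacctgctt
GOT1 promoter, chr10:99430575-99430874, minus strand: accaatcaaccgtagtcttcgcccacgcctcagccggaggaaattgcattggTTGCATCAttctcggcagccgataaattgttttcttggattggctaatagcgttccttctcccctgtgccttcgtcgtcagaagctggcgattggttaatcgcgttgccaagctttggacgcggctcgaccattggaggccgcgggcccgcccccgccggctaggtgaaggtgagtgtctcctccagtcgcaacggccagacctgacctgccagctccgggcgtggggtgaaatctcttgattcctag
BCAT1 promoter, chr12:24949052-24949351, minus strand: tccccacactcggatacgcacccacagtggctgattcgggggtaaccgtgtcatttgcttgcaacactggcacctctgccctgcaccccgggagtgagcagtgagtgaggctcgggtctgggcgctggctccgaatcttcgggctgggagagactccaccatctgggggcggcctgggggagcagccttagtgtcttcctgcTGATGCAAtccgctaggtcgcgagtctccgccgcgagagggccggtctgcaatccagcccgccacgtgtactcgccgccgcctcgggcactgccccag

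In the ASNS promoter TGATGAAA lay at positions -68 to -61 from the transcription start and GTTACA at -48 to -43, both on the strand of the gene. TGATGCAA lay at -48 to -41 in the second BCAT1 promoter shown above, and at -198 to -191 on the opposite strand of GOT1. The RefSeq table held 12 promoters of 6 members, of which 3 held TGATGNAA, against 1270 of 35116 promoters in all (3.62%). Counted by gene, 3 of 6 members and 1217 of 27305 symbols (4.46%) held it in at least 1 promoter. Of the 56 surrounding enzyme and carrier genes with a promoter, from the lists given below, 1 held it, and that gene was not called. PSAT1, a list gene that was called higher, had a promoter but no TGATGNAA in it. Because the members were selected on their difference between the groups, nothing is read from these shares. No TGATGNAA was found in these windows of GOT2, GLUL and GLUD1. GTTACA was found in 2 of 12 member promoters, ASNS and the first BCAT1 promoter, against 6.66% of all promoters. TGACGTCA, the full cyclic AMP response element, was found in 0 of 12 against 1.85%, and CCAAT in 4 of 12 against 34.6%. GPT2 and BCAT2 had no promoter in the table. These matches describe letters and not binding, which was not measured.

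ASNS (ENSG00000070669, chr7:97851677-97872542, minus strand) was low in the control group and well expressed with PB. Its counts in replicates 1, 2 and 3 were 97, 95 and 145 for the control libraries and 1246, 1317 and 1556 for the PB libraries. Per length and depth this was 1.21, 1.13 and 1.35 FPKM in the control libraries, and 16.02, 17.15 and 16.77 FPKM with PB. The groups lay far apart, and the lowest PB library was above the highest control library by more than the whole range within either group. The fitted log2 fold change was 3.61 (SE 0.0682), or 12.2-fold higher with PB. It was larger than that of nearly all tested genes, at rank 89 of 24200 by log2 fold change.

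The level of ASNS may be understated, because other rows overlap the gene or resemble its sequence. An unnamed row on the same strand (ENSG00000284707, chr7:97851688-97972985) covered 1985 of the 4455 exonic bases of ASNS in GENCODE v29, or 44.6%. It covered 84.3% of the transcript ASNS-201 and 100% of ASNS-209 and ASNS-214. How fragments that lie on more than 1 gene were counted is not given in the sources used here, and that row held 19, 19 and 16 counts in the control group and 13, 21 and 18 with PB. A row on the opposite strand within ASNS (ENSG00000226744) held 1, 0 and 1 counts in the control group and 9, 13 and 14 with PB. In GENCODE v29, 0 exonic bases of ASNS were shared with a row on the opposite strand. With ASNS, ASNSP1 and these rows added together, the libraries held 167, 156 and 225 counts in the control group and 2196, 2279 and 2719 with PB, a log2 fold change of 3.71. The sum, chosen after the data were seen, therefore gave a difference close to that of the ASNS row.

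ASNSP1 (ENSG00000248498), annotated as a transcribed unprocessed pseudogene on chromosome 8, was the member with the highest fold. Its counts in replicates 1, 2 and 3 were 50, 42 and 63 for the control libraries and 928, 928 and 1131 for the PB libraries. These were 1.08, 0.86 and 1.01 FPKM in the control libraries, and 20.61, 20.87 and 21.05 FPKM with PB. The groups did not overlap, and the 3 PB libraries were within a CV of 1.06%. The fitted log2 fold change was 4.27 (SE 0.0879), or 19.2-fold, at rank 44 of 24200.

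**Figure D1:**
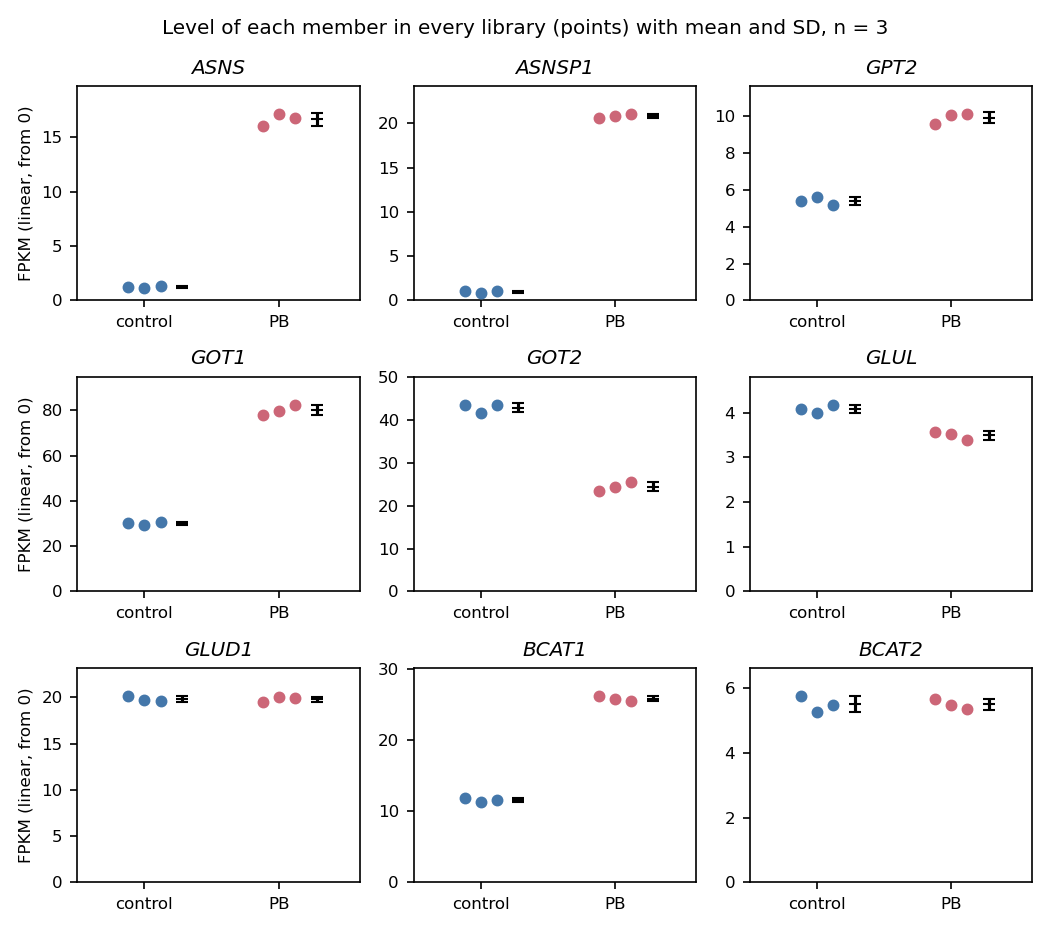
FPKM of each of the 9 members on a linear axis from 0, with 3 control and 3 PB libraries as points (replicates 1 to 3 from left to right) and the mean and SD beside them. ASNS and ASNSP1 stood near 1 FPKM in the control libraries and at 16.6 and 20.8 FPKM on average with PB, while the points of GLUD1 and BCAT2 overlapped between groups.

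ASNSP1 counts were also a larger part of the pair with PB. ASNSP1 took 34.0%, 30.7% and 30.3% of the ASNS and ASNSP1 counts in control replicates 1, 2 and 3, with exact 95% binomial (Clopper-Pearson) intervals of 26.4 to 42.3%, 23.1 to 39.1% and 24.1 to 37.0%. In PB replicates 1, 2 and 3 it took 42.7%, 41.3% and 42.1%, with intervals of 40.6 to 44.8%, 39.3 to 43.4% and 40.2 to 44.0%, all of which cover counting error only. The 3 PB values lay above the 3 control values. Expressed as a ratio, ASNSP1 had 0.464 ± 0.0446 (SD, n = 3) counts for each ASNS count in the control group and 0.726 ± 0.02 with PB. Per length the ratio was 0.801 in the control group and 1.26 with PB, so that the order of the pair by FPKM differed between the groups.

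ASNS and ASNSP1 transcripts were alike but not identical. No window of 100 or 150 bases was shared exactly between their transcripts in GENCODE v29, and 43 windows of 50 bases were, which is 0.9% of those of ASNS and 1.38% of those of ASNSP1. Aligned blocks of ASNSP1-201 and ASNS-201 were 1047 bases at 90.7% identity, 681 bases at 93.1% and 108 bases at 96.3%. Fragments were read from both ends over 150 bases each, and how the aligner placed fragments that fit both genes is not given in the sources used here, so the split between the ASNS and ASNSP1 rows is uncertain. The pseudogene rows ASNSP3, ASNSP4 and ASNSP6 held at most 2 counts in any library.

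**Figure D2:**
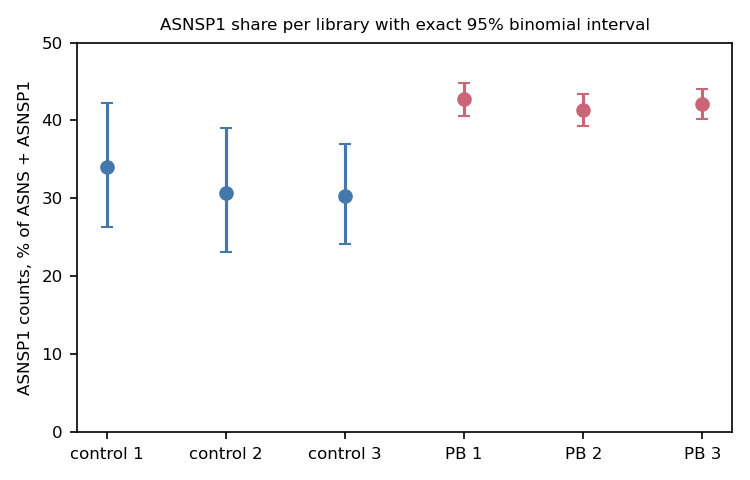
ASNSP1 counts as a percent of ASNS plus ASNSP1 counts in each library, with exact 95% binomial intervals, for control (blue) and PB (red). The 3 control libraries were at 30.3 to 34.0% and the 3 PB libraries at 41.3 to 42.7%, with far narrower intervals in the PB group, where both genes had more counts.

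The aspartate aminotransferases differed in opposite directions. GOT1 (chr10:99396870-99430624, minus strand), the cytosolic form, was at 30.12, 29.21 and 30.56 FPKM in the control libraries, and at 77.91, 79.79 and 82.42 FPKM under PB. Every PB library was above every control library, with a log2 fold change of 1.28 (SE 0.0343), or 2.44-fold. GOT2 (chr16:58707131-58734342, minus strand), the mitochondrial form, was at 43.50, 41.65 and 43.40 FPKM in the control libraries, and at 23.38, 24.36 and 25.63 FPKM with PB. Every PB library was below every control library, with a log2 fold change of -0.94 (SE 0.034), just inside the limit of 1 used for calling a gene.

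GOT1 was thus the lesser form by FPKM in the control libraries and the main form with PB. It made up 40.9%, 41.2% and 41.3% of the summed FPKM of GOT1 and GOT2 in the control replicates in order, and 76.9%, 76.6% and 76.3% in those with PB. The group means were 41.2% ± 0.212 and 76.6% ± 0.319 (SD, n = 3), and the sum of both forms was 72.8 FPKM in the control libraries and 104 FPKM with PB. The deposited table scaled GOT1 by 2424 exonic bases, where GENCODE v29 gives 3369. With the v29 lengths, an alternative added after the data were seen, GOT1 made up 33.3 to 33.7% in the control libraries and 69.9 to 70.7% with PB, so the order of both forms in each group was the same. Of the exonic bases of GOT1 in GENCODE v29, 19.3% overlapped GOT1-DT on the opposite strand, whose row held 146, 148 and 169 counts in the control group and 191, 197 and 187 with PB, against 1191 to 3786 counts of GOT1. Whether counting used strand is not given in the sources used here. GOT2 shared 4.3% of its exonic bases with a row on the opposite strand.

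The branched-chain aminotransferases also differed in response. BCAT1 (chr12:24810024-24949101, minus strand), the cytosolic form, was at 11.83, 11.23 and 11.52 FPKM in the control libraries and at 26.18, 25.73 and 25.47 FPKM with PB. The groups did not overlap, and the log2 fold change of 1.03 (SE 0.0292), or 2.04-fold, lay just past the limit of 1. BCAT2 (chr19:48795062-48811029, minus strand), the mitochondrial form, was at 5.76, 5.28 and 5.49 FPKM in the control libraries and at 5.68, 5.48 and 5.35 FPKM with PB. Its groups overlapped, and its log2 fold change was -0.14 (SE 0.0671). A row antisense to BCAT2 (ENSG00000286024) held 3, 9 and 11 counts in the control group and 18, 8 and 22 with PB, against 391 to 550 counts of BCAT2.

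BCAT1 was the main form in both groups. It made up 67.3%, 68.0% and 67.7% of the summed FPKM of BCAT1 and BCAT2 in the control replicates in order, and 82.2%, 82.4% and 82.6% in those with PB. The groups did not overlap, and the sum of both forms was 17.0 FPKM in the control libraries and 31.3 FPKM with PB.

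**Figure D3:**
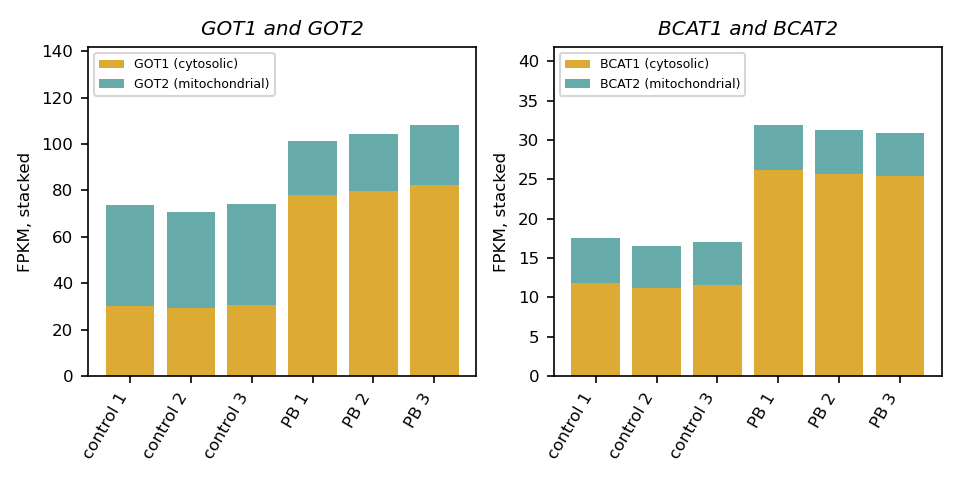
FPKM of GOT1 and GOT2 (left) and of BCAT1 and BCAT2 (right) in each of the 6 libraries, stacked from 0 with the cytosolic form at the bottom. GOT1 filled 40.9 to 41.3% of the GOT bars in the control group and 76.3 to 76.9% with PB, and BCAT1 filled 67.3 to 68.0% and 82.2 to 82.6% of the BCAT bars.

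GPT2 (chr16:46884362-46931289, plus strand), a mitochondrial form, did not follow the mitochondrial GOT2 and BCAT2. It was at 5.41, 5.61 and 5.16 FPKM in the control libraries and at 9.57, 10.03 and 10.11 FPKM with PB. The groups did not overlap, and the log2 fold change was 0.75 (SE 0.0495), or 1.68-fold, short of the limit of 1. Its cytosolic counterpart GPT was scarce, with 10, 5 and 9 counts in the control group and 24, 14 and 21 with PB, so that GPT2 made up 97.1% of their summed FPKM in the control libraries and 95.9% with PB.

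The enzymes that handle glutamate and free ammonia differed little between groups. GLUL (chr1:182378098-182392206, minus strand) was at 4.07, 3.99 and 4.17 FPKM in the control libraries and at 3.57, 3.53 and 3.38 FPKM with PB, a log2 difference of -0.36 (SE 0.049), and its groups did not overlap. GLUD1 (chr10:87050202-87094843, minus strand) was at 20.14, 19.66 and 19.56 FPKM in the control libraries and at 19.50, 20.04 and 19.87 FPKM with PB. Its groups overlapped, and its fitted log2 fold change was -0.13 (SE 0.0264). In GENCODE v29, 13.2% of the exonic bases of GLUD1 overlapped SHLD2 on the opposite strand, whose row held 1212, 1343 and 1709 counts in the control group and 1176, 1120 and 1383 with PB. GLUD2, a close copy of GLUD1, held 23, 25 and 31 counts in the control group and 7, 11 and 9 with PB, and the pseudogene row GLUD1P3 held 39, 71 and 76 counts in the control group and 108, 86 and 94 with PB, against 4424 to 6144 counts of GLUD1.

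The differences of the smaller members depended on the scaling between libraries. The scaling used here (TMM) centred the 24200 tested genes at a median log2 fold change of 0.011, while scaling by library size alone put it at 0.138. With library size alone the log2 fold change of GLUD1 turned from -0.13 to 0.002, that of BCAT2 became -0.003, and that of GLUL -0.23. GOT2 was at -0.81 and GPT2 at 0.88 in that case, and BCAT1 was at 1.16.

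Differentially expressed genes (DEGs) were those past both limits, 0.05 for the adjusted p of edgeR's quasi-likelihood test (Benjamini-Hochberg) and 1 for the log2 fold change in either direction. Under these limits 4 of the 9 members were called higher, namely ASNS, ASNSP1, GOT1 and BCAT1, and 0 were called lower. Over all tested genes 1296 were called higher (5.36%) and 1629 lower (6.73%), or 1809 and 1336 with library size alone. By adjusted p alone 8 of the 9 members were called, with BCAT2 as the exception, against 12151 of all tested genes (50.2%), and 7 with library size alone or limma, where the call of GLUD1 was lost. Of the 9 members, 5 were above and 2 below the control range in every PB library and 2 overlapped, against 55.6% of all tested genes without overlap. Because the members were selected on this contrast, nothing is read from these shares. The members just past the limit and just short of it were BCAT1 at 1.03 and GOT2 at -0.94.

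By level, the order of the members differed between the groups. In the control group it ran from GOT2 (42.9 FPKM on average) through GOT1 (29.96), GLUD1 (19.8), BCAT1 (11.5), BCAT2 (5.51), GPT2 (5.39), GLUL (4.08) and ASNS (1.23) to ASNSP1 (0.983), and only the ranges of the neighbours BCAT2 and GPT2 overlapped. With PB it ran from GOT1 (80.0 FPKM on average) through BCAT1 (25.8), GOT2 (24.5), ASNSP1 (20.8), GLUD1 (19.8), ASNS (16.6), GPT2 (9.90) and BCAT2 (5.50) to GLUL (3.49), and only the ranges of the neighbours BCAT1 and GOT2 overlapped. These levels depend on the exonic length by which FPKM was scaled. The deposited table used 14283 bases for GLUD1 and 12638 for GLUL, where GENCODE v29 gives 3519 and 9032, so the places of GLUD1, GLUL and, by the lengths given above, GOT1 in the order are uncertain. The same holds for ASNS because of the shared row described above.

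The surrounding enzymes and carriers were read from 5 lists of 66 genes, of which 58 were tested. In edgeR's quasi-likelihood test with Benjamini-Hochberg adjustment over all tested genes, 2 of the 58 rose and 4 fell past a log2 fold change of 1, with a largest adjusted p of 0.002005 among the 6, beside 5.36% and 6.73% of all tested genes. The median log2 fold change over the lists was -0.23, beside 0.011 for all tested genes. By adjusted p alone 15 rose and 32 fell, where 5829 and 6322 of all 24200 tested genes did.

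Among the other aminotransferases, 2 of 7 tested genes rose past the limit, beside 5.36% of all tested genes. By adjusted p alone 3 of the 7 were higher and 2 lower. PSAT1 makes phosphoserine, on the way to serine, with an amino group from glutamate. It rose from 98.4 ± 1.62 to 319.8 ± 2.52 FPKM (SD, n = 3), with a log2 fold change of 1.57 (SE 0.0248). GPT rose at low counts by 1.28 on the log2 scale (SE 0.383) with an adjusted p of 0.002005. Among the 7 tested genes of asparagine and aspartate use, ASRGL1, an asparaginase-like enzyme, fell from 3.34 ± 0.0808 to 1.52 ± 0.155 FPKM, and no gene rose past the limit.

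Among the 12 tested genes of glutamine and glutamate use, 3 fell and 0 rose past the limit, with a list median of -0.49. CTPS1, which uses glutamine to make CTP, fell from 11.6 ± 0.2 to 5.49 ± 0.18 FPKM (n = 3), and GFPT2, which uses glutamine to make glucosamine phosphate, fell from 3.28 ± 0.257 to 1.14 ± 0.0306 FPKM. GLUD2 fell by 1.53 on the log2 scale (SE 0.343), at the low counts given above. GFPT1, which has the same activity as GFPT2, was at 13.4 ± 0.474 FPKM in the control libraries and 23.5 ± 0.0635 with PB, a log2 fold change of 0.67.

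No gene was called in either list of partners of the aminotransferases downstream. Over all tested genes 5.36% were called higher and 6.73% lower. Lists this short would hold few calls at those shares, and nothing is read from their absence. Of the 23 genes listed under branched-chain oxidation, regulators of it included, 0 were called. The list median lay at -0.14 on the log2 scale and MCCC2 at -0.68. By adjusted p alone 8 of the 23 were higher and 11 lower, where 50.2% of all tested genes passed in either direction. The list of the malate-aspartate shuttle and mitochondrial carriers also held a gene of neither kind. All 9 of its genes had negative log2 fold changes, from -0.72 to -0.08, and 6 of the 9 passed the adjusted p alone. In this list 0 of 9 passed the limit of 1. By FPKM, which carries library size alone, 8 of the 9 were lower on average and SLC25A12, an aspartate-glutamate carrier, was at 8.66 FPKM in the control libraries and 8.99 with PB. Both malate dehydrogenases, which work beside GOT1 and GOT2 in the shuttle, were lower, at 32.1 FPKM in the control libraries and 21.4 with PB for the cytosolic MDH1 and at 77.3 and 54.9 for the mitochondrial MDH2. Beside these negative values stand the 1.28 of GOT1 and the -0.94 of GOT2, which were selected on this contrast.

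**Figure D4:**
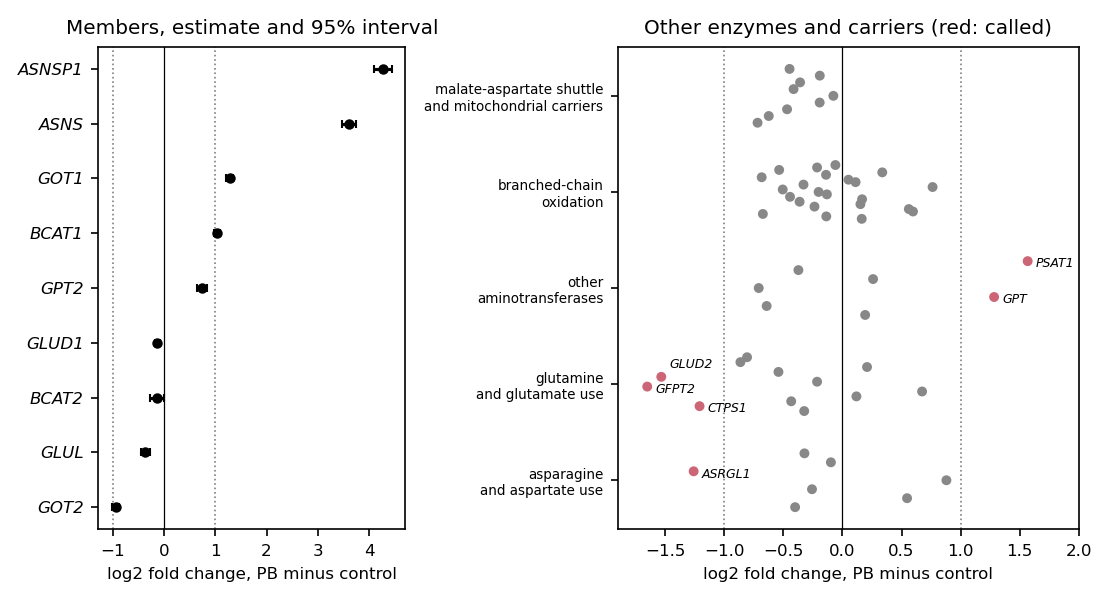
Log2 fold change, PB minus control, of the 9 members with 95% intervals (left) and of the 58 tested genes of the 5 lists as points (right), with dotted lines at the limits of -1 and 1 and called genes in red. ASNSP1 and ASNS lay at 4.27 and 3.61, GOT1 at 1.28, BCAT1 just past 1 and GOT2 just short of -1, and the list genes lay between -1.65 (GFPT2) and 1.57 (PSAT1).

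The genes whose pattern over the 6 libraries was most like that of ASNS were named by the root mean square difference of log2(CPM + 0.1) after centring each gene on its mean, among 13532 genes whose mean FPKM was 1 or more. TRIB3, the pseudokinase that PB was chosen to target, was the nearest at 0.0797. Its counts in replicates 1, 2 and 3 were 295, 288 and 382 for the control libraries and 3331, 3612 and 4216 for the PB libraries. These are RNA counts, and by Western blot the paper reported no significant effect of PB on TRIB3 protein in this line. The next nearest genes were ENSG00000249328, which has no symbol (0.139), SESN2, a stress-induced inhibitor of growth signalling (0.149), ENSG00000289915, which has no symbol (0.224), and DDIT3, a stress transcription factor (0.225). ASNSP1 was farther from ASNS, at 0.322, and the other members were at 1.16 (GOT1) to 2.27 (GOT2). All points shared the same 6 libraries in 2 groups, so the measure mostly reflects the size of the difference between groups.

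**Figure D5:**
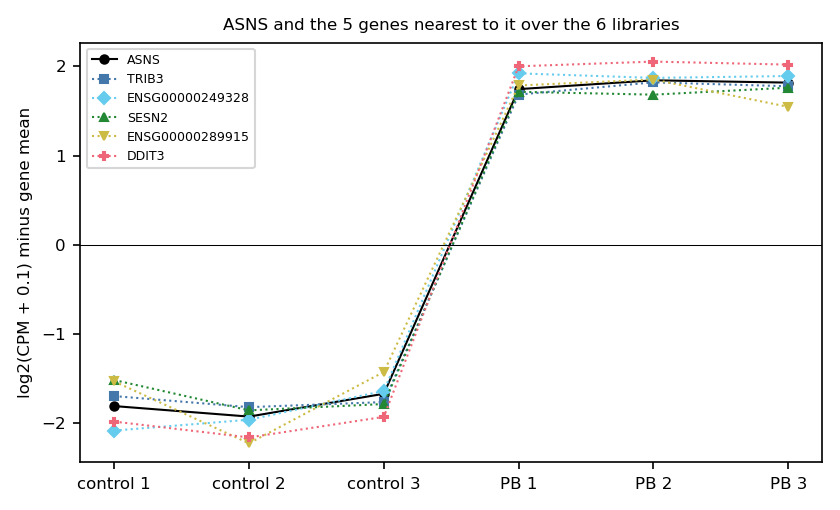
Log2(CPM + 0.1) minus the mean of the gene in each of the 6 libraries, for ASNS (solid line) and the 5 genes nearest to it (dotted lines). All 6 genes were below their mean in the 3 control libraries and above it in the 3 PB libraries, and the line of TRIB3 lay within 0.0797 (root mean square) of that of ASNS.

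Other rows that carry a member symbol with a pseudogene or antisense ending added little to these counts. Of 18 such rows 12 held 0 counts in every library and 4 held at most 1 to 9. The 2 rows with at least 10 counts in a library were GLUD1P3 at 0.64 (SE 0.156) and GOT1-DT at 0.31 (SE 0.107) on the log2 scale, and neither was called.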

How the data were processed

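MDA-MB-231 RNA-seq of 3 control and 3 PB samples was analysed, with groups taken from the sample titles and the dose and time from the methods of the study. The table the authors deposited gives a raw count and an FPKM value for each gene and sample. Counts were tested unchanged, and 100% of the deposited FPKM values equalled the count divided by exonic length and library total within rounding. The submitters' processing notes name HTSeq 0.6.1, DESeq2, Cufflinks 2.2.1 and hg38. The aligner, the strand setting and the treatment of fragments on several genes are not given in the sources used here. Every column of sample values had its sample.

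The 24200 genes whose mean FPKM reached 0.1 were fitted with edgeR 4.0.16 in R 4.3.3 (TMM, quasi-likelihood test, Benjamini-Hochberg adjustment), and log2 fold changes, SEs and intervals of the members were read from that fit. Members, lists, motifs and tests were chosen with earlier results of these data known. The text names the 9 members, pseudogene and antisense rows of a member with at least 10 counts in a sample, called list genes and the 5 genes nearest to ASNS. MDH1, MDH2, SLC25A12, GFPT1, MCCC2, SHLD2, the marker genes and the rows overlapping ASNS, GOT2 and BCAT2 were named after their values were seen. Promoters came from RefSeq (GRCh38.p14) and exons from GENCODE v29.

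Tested on simulated counts for this comparison with 200 genes of at least 50 mean counts changed by 2 on the log2 scale, edgeR recovered 200 with 0 false calls, DESeq2 1.42.0 200 with 0, and limma 3.58.1 198 with 48. Changes near the limit of 1, such as those of BCAT1 and GOT2, and a shift in scaling between libraries were not simulated. The simulation changed 200 of 24200 genes, where 12151 passed the adjusted p alone in the data. Its spread between replicates was a set value, not one fitted to these data. P-values measure only the spread between these samples, which may be technical. Alternatives were other filters and thresholds, DESeq2, limma on log2(FPKM + 0.1), library size alone, the replicate number as a block and each sample left out in turn. Added after the data were seen were the sum of ASNS, ASNSP1 and the rows overlapping ASNS, and GOT shares by GENCODE v29 lengths.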

Additional observations from a re-analysis of the deposited data

How the results depend on the processing

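As a description of members selected on this contrast, ASNS, ASNSP1, GOT1 and BCAT1 remained the 4 called without a filter, under an FPKM minimum of 1, by DESeq2 or limma, by library size alone and without any single library, and only ASNS and ASNSP1 were called at a log2 fold change of at least 2. The log2 fold change of BCAT1, close to the limit, ranged from 1.01 to 1.16 over the alternatives, and that of GOT2 from -0.98 to -0.81. GLUD1 turned to 0.001 with limma and 0.002 with library size alone, and with library size alone BCAT2 was at -0.003. Over all genes, a mean FPKM of at least 1 gave 608 higher and 769 lower genes, a log2 fold change of at least 2 gave 259 and 627, and adjusted p alone gave 5829 and 6322. Of the list genes, a mean FPKM of at least 1 left 1 higher, a log2 fold change of at least 2 left 0 higher and 0 lower, and adjusted p alone gave 15 and 32. DESeq2 called 1049 higher and 1450 lower, limma 1384 and 1197, and library size alone 1809 and 1336. With each library left out in turn, 1224 to 1270 genes were higher and 1560 to 1604 lower. With GENCODE v29 exonic lengths GOT1 made up 33.6% of GOT1 plus GOT2 in the control group and 70.3% with PB. Per exonic length the ASNSP1 to ASNS ratio was 0.801 in the control group and 1.26 with PB. Same-numbered samples did not deviate together (correlations of -0.0476, 0.0381 and -0.0276 for replicates 1, 2 and 3). This does not settle whether the numbers mark pairs, since pairs that shared no deviation would give such values. A fit with the replicate block called 1206 genes higher and 1547 lower and the same 4 members. At this depth ratios of ASNSP1 to ASNS in the control group rest on 42 to 63 ASNSP1 counts.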
